A study of Mus musculus with 8 samples.

Results

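The genes described here are 39 listed genes for proteins that hepatocytes secrete into blood plasma, among 55401 genes in each of 8 deposited tables of AML12 cells. They were chosen by symbol from the function of their products and not by their values, and all 39 were found in the tables. They were ordered into carriers (7 genes), apolipoproteins (6), clotting factors (8), serpins (7), acute-phase proteins and metal or haem binders (3), complement and matrix proteins (4), and heavy chains of the inter-alpha-trypsin inhibitors (4). The question was which of them AML12 cells express in control dishes and which differ after exposure.

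RNA-seq of poly(A) RNA compared 4 control dishes with 4 dishes exposed for 1 h to Opti-ELF-WMF, a pulsed, extremely low frequency, weak magnetic field with a pulse width of 4 ms, frequencies stepping from 1 to 8 Hz and a peak of 100 mG. AML12 is an established line of mouse hepatocytes, so each group is dishes of 1 cell line and not liver tissue, and both groups grew in medium with serum, dexamethasone, insulin, transferrin and selenite. Control cells came from the same batch of cultured cells and stood in another incubator of the same model with the stimulator off, so that incubator and exposure cannot be told apart. p-values therefore measure the spread between dishes of 1 experiment. In bulk RNA, fewer cells that express a gene and less of its RNA in each cell cannot be told apart.

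The liver makes most of the proteins of blood plasma. Hepatocytes synthesise them on the rough endoplasmic reticulum, fold and glycosylate them there, and export them through the Golgi apparatus without storing them. Albumin and the apolipoproteins carry small molecules and lipids, fibrinogen and the prothrombin group form clots, serpins restrain proteases, and complement and acute-phase proteins take part in defence. Many of these genes are driven by the liver-enriched factors HNF4 and C/EBP.

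Values are TPM, a measure of transcript abundance that divides reads by gene length and scales each dish to the same total, so that levels can be compared between genes but the sequencing depth is unknown. A gene was called expressed where TPM was at least 1 in every control dish. The 12122 genes that reached 1 TPM in 4 or more dishes were tested with limma, and differences are exposed minus control on the log2(TPM + 1) scale, which understates differences of low genes. The tables matched the label of the cells only in part. Of 16 hepatocyte markers, 3 were expressed (Krt8, Krt18 and Ass1), and Cyp2e1, Cyp7a1, Pck1 and Hpd were listed at 0 in all 8 dishes. The summed level of the hepatocyte markers, nearly all of it from the keratins Krt8 and Krt18, was 4050 to 4238 TPM in control dishes and 4319 to 4526 TPM in exposed dishes, and its part in the differences of the plasma protein genes was not tested. Of 8 cholangiocyte markers, 5 were expressed, among them the bile duct keratin Krt19 at 1153 ± 37.4 TPM (SD, n = 4 control dishes), and their summed level was 1667 to 1765 TPM in control dishes and 1691 to 1802 TPM in exposed dishes. None of 11 stellate cell or fibroblast markers and none of 7 endothelial markers was expressed, and of 9 macrophage markers only Cd68 was. The summed levels were 0.62 to 2.01 and 0.71 to 1.39 TPM for stellate cells, 0.01 to 0.09 and 0.03 to 0.09 TPM for endothelium, and 1.6 to 2.34 and 1.2 to 1.81 TPM for macrophages in control and exposed dishes. Lum and Lrat, Cdh5 and Clec4g, and 6 macrophage genes were at 0 in every dish. The share of TPM in mitochondrial genes was 8.94% ± 0.336 without and 7.04% ± 0.764 with exposure (SD, n = 4 dishes each), with no overlap. TPM has a fixed total, so results are also given after other scalings, one of which leaves out these genes.

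AML12 cells in control dishes expressed 18 of the 39 plasma protein genes (46.2%), against 11629 of all 55401 genes (21%). The share over all genes counts many genes listed at 0, since 19607 to 19945 genes were above 0 in a control dish. It is therefore not a like background for the 39 genes. In exposed dishes, 18 of the 39 genes had at least 1 TPM in every dish. With a limit of 0.5 TPM the control count was 19, and with a limit of 5 TPM it was 13. Expression was split within almost every class: 5 of 7 carriers, 4 of 6 apolipoproteins, 3 of 7 serpins, 3 of 3 acute-phase and metal or haem binding genes, 2 of 4 complement and matrix genes and 1 of 4 inter-alpha-trypsin inhibitor heavy chains were expressed, and 0 of 8 clotting genes. Transferrin (Trf) stood highest, and the 6 highest genes, Trf, Cp, Ttr, Ambp, Apob and Rbp4, held 84.3% of the TPM summed over the 39 genes in control dishes. Of the other 21 genes, Afp lay around 1 TPM and was tested, and 20 were under 1 TPM in all 8 dishes, with 0.89 TPM as their highest value, and did not enter the test. Summed over the 39 genes, the level was 2704 ± 34.9 TPM without and 2732 ± 58.3 TPM with exposure (SD, n = 4 dishes each), with overlap.

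**Figure D1:**
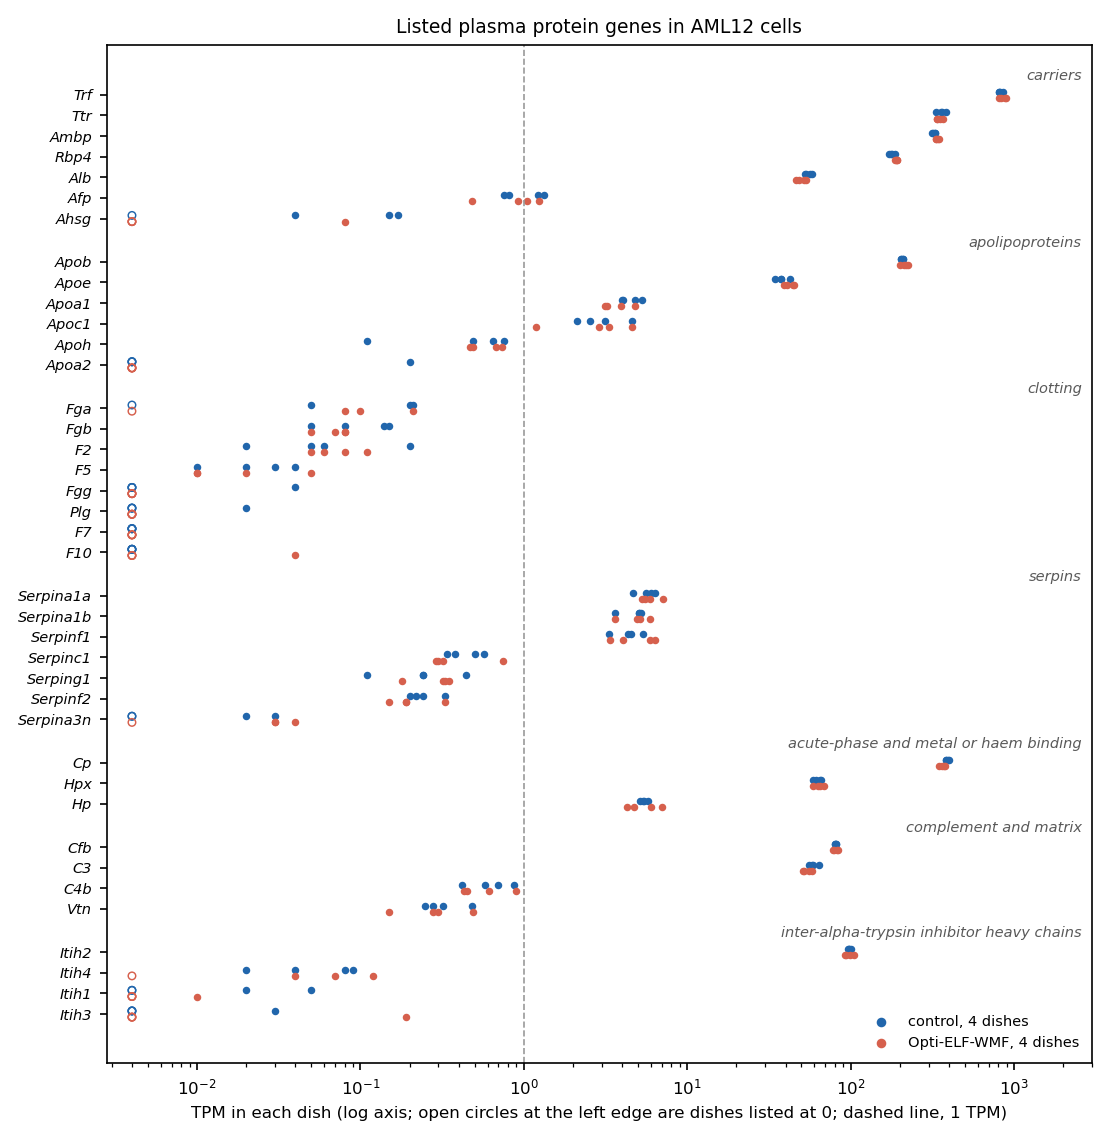
TPM of each of the 39 plasma protein genes in 4 control dishes (blue) and 4 exposed dishes (red) on a log axis, grouped by class; each point is a dish, open circles at the left edge are dishes listed at 0, and the dashed line marks 1 TPM. The genes fall into 12 with a control mean of 38 TPM or more, 7 between 1.03 and 5.66 TPM and 20 at 0.642 TPM or less, and the clotting genes all lie in the last of these.

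The 4 sequences that follow lie just upstream of transcription starts and are shown because a pair of expressed genes and a pair of genes that were not expressed carry the same C/EBP sequence within 100 bases of the start. They are the 250 bases before the start given by RefSeq on GRCm38.p6, 5′ to 3′ on the strand of the gene, with TTGCNNAA, on either strand, in capitals. Alb and C3 were expressed, Afp lay around 1 TPM, and Fgb was at 0.15 TPM or less.
Alb, chr5:90460620-90460869, plus strand: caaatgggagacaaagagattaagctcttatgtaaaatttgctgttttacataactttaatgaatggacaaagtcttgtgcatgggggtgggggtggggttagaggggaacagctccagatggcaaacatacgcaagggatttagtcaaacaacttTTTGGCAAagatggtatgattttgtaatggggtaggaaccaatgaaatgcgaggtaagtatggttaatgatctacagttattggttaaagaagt
C3, chr17:57228137-57228386, minus strand: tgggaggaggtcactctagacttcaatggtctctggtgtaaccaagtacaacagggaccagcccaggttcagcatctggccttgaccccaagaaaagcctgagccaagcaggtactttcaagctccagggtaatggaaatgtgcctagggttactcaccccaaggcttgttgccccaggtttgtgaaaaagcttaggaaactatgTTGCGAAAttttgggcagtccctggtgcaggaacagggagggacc
Afp, chr5:90490464-90490713, plus strand: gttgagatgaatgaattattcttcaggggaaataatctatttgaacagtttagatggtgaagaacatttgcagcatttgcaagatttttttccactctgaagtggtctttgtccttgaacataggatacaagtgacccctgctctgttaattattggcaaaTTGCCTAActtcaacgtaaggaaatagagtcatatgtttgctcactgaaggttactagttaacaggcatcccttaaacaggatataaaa
Fgb, chr3:83049864-83050113, minus strand: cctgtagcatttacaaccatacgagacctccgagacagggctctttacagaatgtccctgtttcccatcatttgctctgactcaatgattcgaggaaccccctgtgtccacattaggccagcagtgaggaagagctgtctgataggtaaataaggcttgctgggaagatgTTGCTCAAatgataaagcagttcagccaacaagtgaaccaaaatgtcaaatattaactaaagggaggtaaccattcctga
The first base of the match lay at position -94 from the start in Alb, -45 in C3, -89 in Afp and -80 in Fgb.

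RefSeq start regions of 300 bases, from 250 before to 50 after the start, were held for 31 of the 39 genes, and were searched for 3 short sequences. The C/EBP sequence TTGCNNAA, on either strand, was in regions of 9 of 13 expressed genes and 6 of 18 genes that were not expressed, against 10.8% of all 32851 regions. The HNF4 half-site AAAGTCC, on either strand, was in 0 of 13 and 1 of 18 genes (Apoa2), against 4.21%. TATAAA, on the strand of the gene, was in 5 of 13 and 4 of 18 genes, against 8.32%. A C/EBP match overlapped a match to another of these sequences in 1 region, of Apoa2. A match is a string of letters and was not tested for binding, and 4 genes had more than 1 start region, so that they had more than 1 chance of a match. Among transcription factors known to act on these genes in liver, Hnf4a was at 187 ± 8.22, Foxa2 at 58.8 ± 3.62 and Cebpb at 37 ± 10.8 TPM (SD, n = 4 control dishes).

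Of the 39 genes, 19 were tested for a difference after 1 h of Opti-ELF-WMF, and none had an adjusted p-value under 0.05, where the same held for all 12122 tested genes (limma with Benjamini-Hochberg adjustment, 0% called). After each of 3 other scalings, 1 gene of the whole table passed, which was not among the 39. At an unadjusted p-value under 0.05, 6 of the 19 were called: the retinol carrier Rbp4, the carrier and protease inhibitor precursor Ambp and the apolipoprotein Apoe were higher, and albumin (Alb), ceruloplasmin (Cp) and complement component C3 were lower. The background was 1894 genes or 15.6% of all tested genes, 12% higher and 3.65% lower, and the 19 genes had 3 higher and 3 lower. In 3 of them every exposed dish lay to one side of every control dish, Rbp4 and Ambp higher and Cp lower, against 9.87% of all tested genes, 8.01% higher and 1.86% lower. Of the 19 genes, 10 had a positive and 9 a negative difference, with a median of 0.00 against 0.03 over all tested genes on the log2(TPM + 1) scale. Under each of 3 other scalings 8 were positive and 11 negative, with a median of -0.03, while the median of all tested genes was -0.001, -0.005 and -0.002.

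**Figure D2:**
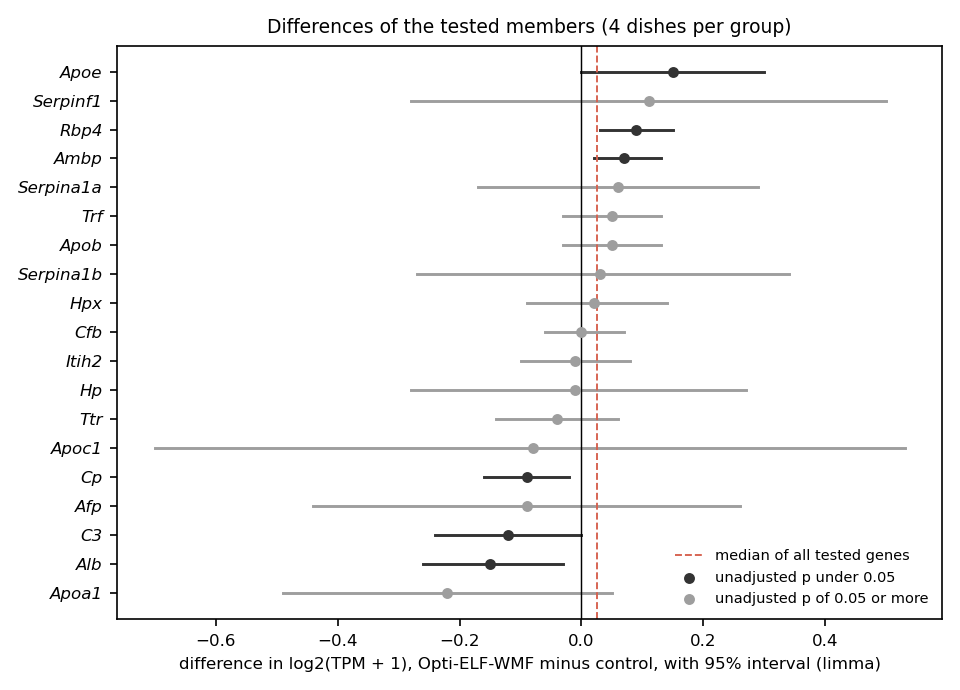
Difference in log2(TPM + 1), exposed minus control, of the 19 tested plasma protein genes with the 95% interval from limma (4 dishes per group); dark points have an unadjusted p-value under 0.05 and the dashed line is the median of all tested genes. The 12 abundant genes have narrow intervals with standard errors of 0.02 to 0.07, and the 7 genes near 1 to 6 TPM have standard errors of 0.10 to 0.27.

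The direction of the calls moved with the scaling. With median-of-ratios or upper-quartile scaling of the deposited TPM, 0 of the 19 genes were higher and 3 lower at an unadjusted p-value under 0.05, and with TPM rescaled without mitochondrial genes 1 was higher and 3 lower. Over all tested genes, the share of calls that were higher went from 76.6% on deposited TPM to 47.1%, 42.4% and 50.6% under the same 3 scalings. The background was then 5.54% higher and 6.22% lower with median-of-ratios scaling, 4.85% and 6.6% with upper-quartile scaling, and 5.7% and 5.57% without mitochondrial genes. Alb, Cp and C3 were lower under all 4 scalings, and Rbp4, Ambp and Apoe kept a positive difference whose p-value missed 0.05 in all but 1 of the 9 rescaled fits, that of Rbp4 without mitochondrial genes (unadjusted p = 0.0441, limma).

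**Figure D3:**
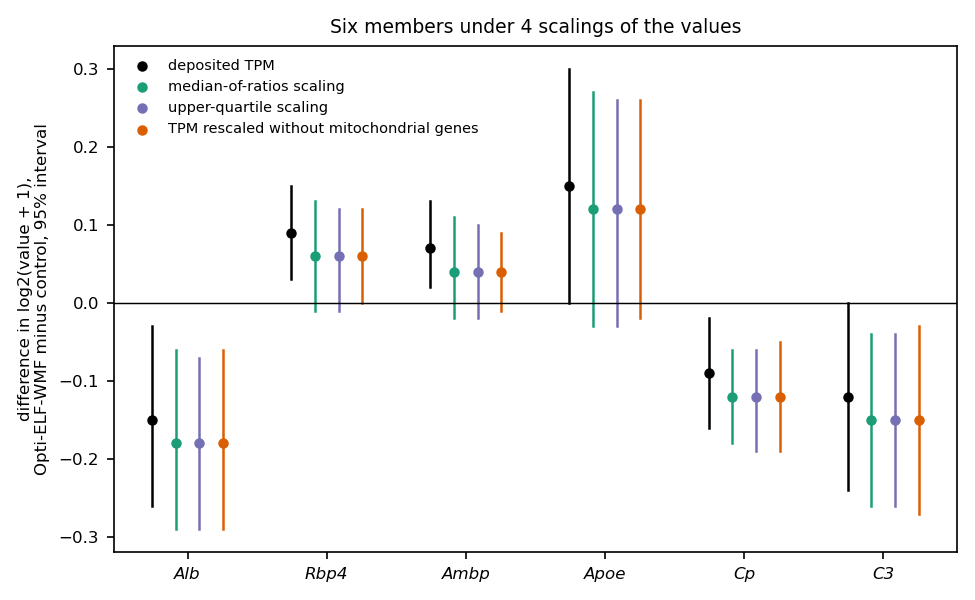
Difference, exposed minus control, of the 6 plasma protein genes with an unadjusted p-value under 0.05, on deposited TPM (black) and after 3 other scalings (colours), each with its 95% interval from limma. The intervals of Alb, Cp and C3 lie further below 0 after rescaling, at -0.18, -0.12 and -0.15, and those of Rbp4, Ambp and Apoe move toward 0, to 0.06, 0.04 and 0.12.

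Among the carriers, albumin, the most abundant protein of plasma, was expressed at a modest level in these cells. Alb (chromosome 5 from 90460897 to 90476602, GRCm38) had TPM values of 58.22, 52.55, 53.21 and 56.37 in control dishes 1 to 4 and 48.16, 51.51, 53.04 and 46.12 in exposed dishes 1 to 4. Exposed dishes 1 and 4 were lowest and the groups overlapped, since exposed dish 3 lay above control dish 2. The means were 55.1 ± 2.67 and 49.7 ± 3.14 TPM (SD, n = 4), a log2 difference of -0.15 (95% interval -0.26 to -0.03, unadjusted p = 0.0168, adjusted p = 0.21, limma). With the other scalings the difference was -0.18, and the groups no longer overlapped (unadjusted p = 0.0047 to 0.00587, limma). In 8 fits that each left out 1 dish the difference ranged from -0.18 to -0.11, with p-values from 0.00697 to just under 0.05 (limma).

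Rbp4, which carries retinol in plasma in a complex with transthyretin, lies on chromosome 19 from 38116629 to 38125281. Its TPM values were 186.13, 180.30, 176.27 and 171.88 in control dishes and 191.06, 193.21, 188.64 and 187.75 in exposed dishes. Every exposed dish was above every control dish, with exposed dish 4 closest to control dish 1. The log2 difference was 0.09 (95% interval 0.03 to 0.15, unadjusted p = 0.00997, adjusted p = 0.177, limma), and 0.06 under each of the other scalings, where the groups overlapped. Transthyretin (Ttr), the carrier of thyroid hormone that binds Rbp4, had 383.65, 356.27, 333.23 and 360.20 TPM in control dishes and 351.62, 365.96, 338.00 and 338.08 TPM in exposed dishes. These groups overlapped, with control dish 1 the highest and control dish 3 the lowest of all 8 (difference -0.04, 95% interval -0.14 to 0.06, unadjusted p = 0.385, limma).

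Ambp encodes the precursor of alpha-1-microglobulin, a haem-binding carrier, and of bikunin, the light chain of the inter-alpha-trypsin inhibitors, and lies on chromosome 4 from 63143275 to 63154799. It had 321.13, 328.81, 315.15 and 327.00 TPM in control dishes and 348.70, 342.61, 334.19 and 334.11 TPM in exposed dishes. All exposed dishes lay above the highest control dish. The log2 difference was 0.07 (95% interval 0.02 to 0.13, unadjusted p = 0.0138, adjusted p = 0.194, limma). It was 0.04 under the other scalings, where the p-value missed 0.05 (unadjusted p = 0.0742 to 0.174, limma) and the groups overlapped with median-of-ratios and upper-quartile scaling but not without mitochondrial genes. Trf, the plasma carrier of iron, was the highest of the 39 genes (chromosome 9 from 103204001 to 103230444), with 818.19, 857.34, 807.81 and 809.09 TPM in control dishes and 880.51, 832.48, 892.29 and 808.90 TPM in exposed dishes. Exposed dishes 1 and 3 were above all others, exposed dish 4 was among the control dishes, and the groups overlapped (difference 0.05, 95% interval -0.03 to 0.13, unadjusted p = 0.178, limma). Without exposed dish 4 the difference of Trf was 0.08 (unadjusted p = 0.0475, limma). Only this 1 of 8 fits that each left out 1 dish had a p-value under 0.05 (up to 0.423 in the others, limma). The Trf transcript shares 77.3% of its 100-base windows with the overlapping gene model Gm20425, for which no TPM was given. Any effect of this sharing on the value of Trf was not tested.

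The fetal carrier Afp lies 29.8 kb downstream of Alb and was near the limit, with control values of 1.33, 0.81, 1.23 and 0.76 TPM and exposed values of 1.24, 0.92, 0.48 and 1.04 TPM. Its groups overlapped, and the difference was -0.09 (95% interval -0.44 to 0.26, unadjusted p = 0.587, limma). The calcification inhibitor Ahsg (fetuin-A), an abundant plasma protein, was at 0.17 TPM or less in all 8 dishes.

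Of the 6 apolipoproteins, Apob and Apoe were abundant, Apoa1 and Apoc1 were low, and Apoa2 and Apoh were not expressed. Apob, the scaffold of VLDL and LDL, lies on chromosome 12 from 7977648 to 8016835 and had 210.44, 204.66, 208.45 and 202.69 TPM in control dishes and 225.17, 213.01, 218.51 and 200.17 TPM in exposed dishes. Exposed dishes 1 to 3 lay above all control dishes and exposed dish 4 below them all, and the difference was 0.05 (95% interval -0.03 to 0.13, unadjusted p = 0.182, limma). Without exposed dish 4 it was 0.08, with no overlap (unadjusted p = 0.0178, limma). Of the 8 fits that each left out 1 dish, only this 1 had a p-value under 0.05 (up to 0.445 in the others, limma). Without the same dish, 1843 of 12031 tested genes had no overlap.

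Apoe, a ligand for lipoprotein receptors, lies on chromosome 7 from 19696109 to 19699188 and had 42.44, 37.72, 34.58 and 37.29 TPM in control dishes and 44.21, 44.88, 38.94 and 40.86 TPM in exposed dishes. Exposed dishes 1 and 2 were above all control dishes, whereas control dish 1 stood above exposed dishes 3 and 4. The log2 difference was 0.15 (95% interval 0.00 to 0.30, unadjusted p = 0.046, adjusted p = 0.309, limma). This call did not hold in 6 of 8 fits that each left out 1 dish: without control dish 2, 3 or 4 the p-value was 0.0799, 0.128 or 0.0884, and without exposed dish 1, 2 or 4 it was 0.112, 0.121 or 0.0532 (limma). Apoa1, the main protein of HDL, was low, at 4.80, 4.07, 4.01 and 5.29 TPM in control dishes and 3.12, 3.25, 4.76 and 3.96 TPM in exposed dishes. Its groups overlapped through exposed dish 3 (difference -0.22, 95% interval -0.49 to 0.05, unadjusted p = 0.0983, limma), and without that dish the difference was -0.32 with no overlap (unadjusted p = 0.0182, limma). Only this 1 of the 8 fits for Apoa1 had a p-value under 0.05 (up to 0.243 in the others, limma). Without exposed dish 3, 1631 of 12055 tested genes had no overlap. Apoc1, which modulates lipoprotein metabolism, was at 3.1 ± 1.08 and 2.99 ± 1.41 TPM (SD, n = 4), the widest relative spread of the 19 tested plasma protein genes of the list (34.7% in control dishes), with a difference of -0.08 (95% interval -0.70 to 0.53, unadjusted p = 0.769, limma). Apoa2, the other major HDL protein, was listed at 0 in 7 of 8 dishes and at 0.20 TPM in control dish 4, and Apoh, a phospholipid-binding plasma protein, lay between 0.11 and 0.76 TPM.

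No clotting gene was expressed. The fibrinogen chains Fga, Fgb and Fgg had highest values of 0.21, 0.15 and 0.04 TPM, prothrombin (F2) of 0.20 TPM and the cofactor F5 of 0.05 TPM. F10, the protease that activates prothrombin, was above 0 only in exposed dish 3 (0.04 TPM), Plg, the precursor of the clot-dissolving plasmin, only in control dish 4 (0.02 TPM), and F7, the starter of the extrinsic pathway, was listed at 0 in all 8 dishes. Summed over the 8 genes, TPM was 0.18 to 0.44 in control dishes and 0.12 to 0.38 in exposed dishes, with overlap. In the same dishes none of 10 genes that every cell uses was listed at 0, and the lowest of their values was 28.8 TPM. The depth of the libraries is unknown, so a value of 0 gives no upper limit.

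Among the serpins, 3 of 7 were expressed, all at 7.08 TPM or less. Serpina1a and Serpina1b encode alpha-1-antitrypsin, the main plasma inhibitor of neutrophil elastase, and had means of 5.66 ± 0.743 and 4.73 ± 0.743 TPM in control dishes and 5.95 ± 0.801 and 4.89 ± 0.952 TPM in exposed dishes (SD, n = 4). The differences were 0.06 (95% interval -0.17 to 0.29, unadjusted p = 0.577, limma) and 0.03 (95% interval -0.27 to 0.34, unadjusted p = 0.811, limma), with overlap in both. These near-identical genes share 49.9% (Serpina1a) and 20.6% (Serpina1b) of their 100-base windows with other genes of the family, so reads could be split between copies, and with the copies summed the difference was 0.06 (unadjusted p = 0.647, limma). Serpinf1, which encodes pigment epithelium-derived factor, was at 4.38 ± 0.826 and 4.91 ± 1.42 TPM (difference 0.11, 95% interval -0.28 to 0.50, unadjusted p = 0.529, limma). The other 4 listed serpins were not expressed: antithrombin (Serpinc1) was at 0.29 to 0.75 TPM, the plasmin inhibitor Serpinf2 at 0.15 to 0.33 TPM, the C1 inhibitor Serping1 at 0.11 to 0.44 TPM, and the acute-phase serpin Serpina3n at 0.04 TPM or less.

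The metal and haem binders were expressed at unequal levels. Cp, the copper-carrying ferroxidase of plasma, lies on chromosome 3 from 19957054 to 20009145 and had 381.55, 382.56, 398.62 and 393.57 TPM in control dishes and 348.26, 364.52, 379.19 and 370.83 TPM in exposed dishes. All 4 exposed dishes were lower than the lowest control dish, exposed dish 1 by the most. The log2 difference was -0.09 (95% interval -0.16 to -0.02, unadjusted p = 0.0141, adjusted p = 0.195, limma). It ranged from -0.11 to -0.07 in the 8 fits that each left out 1 dish, and was -0.12 under the other scalings (unadjusted p = 0.00142 to 0.00407, limma). Hemopexin (Hpx), which binds free haem, lies on chromosome 7 from 105591613 to 105600137 and had 64.53, 59.18, 61.63 and 66.20 TPM in control dishes and 68.64, 65.38, 62.76 and 58.76 TPM in exposed dishes. The exposed dishes spanned the control dishes, and the difference of 0.02 (95% interval -0.09 to 0.14, unadjusted p = 0.687, limma) was -0.01 under the other scalings. Haptoglobin (Hp), which binds free haemoglobin and is known to increase in the acute phase, was at 5.42 ± 0.271 and 5.48 ± 1.24 TPM (difference -0.01, 95% interval -0.28 to 0.27, unadjusted p = 0.956, limma).

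Of the complement and matrix genes, the central component C3 and the alternative-pathway protease Cfb were expressed, and C4b and vitronectin (Vtn) were not. C3, on chromosome 17 from 57203970 to 57228136, had 57.72, 55.35, 63.81 and 59.04 TPM in control dishes and 51.15, 55.41, 51.90 and 58.29 TPM in exposed dishes. Exposed dishes 1 and 3 were lowest, control dish 3 was highest, and exposed dishes 2 and 4 fell among the control dishes. The log2 difference was -0.12 (95% interval -0.24 to -0.00, unadjusted p = 0.0483, adjusted p = 0.315, limma). It was -0.15 under the other scalings (unadjusted p = 0.0114 to 0.0212, limma), and on deposited TPM the call was lost in 6 of 8 fits that left out 1 dish: without control dish 1, 3 or 4 the p-value was 0.0593, 0.136 or 0.0823, and without exposed dish 1, 2 or 3 it was 0.127, 0.0568 or 0.118 (limma).

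Cfb, on chromosome 17 from 34856374 to 34862518, had the smallest spread of the 39 genes (0.945% of its mean over control dishes). Its values were 80.90, 81.36, 79.80 and 79.91 TPM in control dishes and 83.43, 82.07, 77.84 and 79.00 TPM in exposed dishes. The exposed dishes lay on both sides of the control dishes, and the difference was 0.00 (95% interval -0.06 to 0.07, unadjusted p = 0.97, limma), turning to -0.03 under the other scalings. Its transcript shares 81% of its 100-base windows with the overlapping gene model Gm20547, which was at 0.025 TPM. C4b, of the classical pathway, lay between 0.42 and 0.89 TPM and shares 16.5% of its windows with C4a, which was at 1.25 TPM, so that reads could be split between the copies. Vtn, an adhesive protein of plasma and matrix, lay between 0.15 and 0.49 TPM.

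Inter-alpha-trypsin inhibitors join heavy chains to bikunin from Ambp and stabilise hyaluronan matrix. Of the heavy chains only Itih2, on chromosome 2 from 10094593 to 10131396, was expressed, with 98.15, 97.84, 96.28 and 99.90 TPM in control dishes and 93.43, 99.24, 104.55 and 92.50 TPM in exposed dishes. The exposed dishes scattered on both sides of the control dishes, and the difference was -0.01 (95% interval -0.10 to 0.08, unadjusted p = 0.795, limma). Itih1, Itih3 and Itih4, which lie side by side on chromosome 14 within 56.8 kb, had highest values of 0.05, 0.19 and 0.12 TPM.

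**Figure D4:**
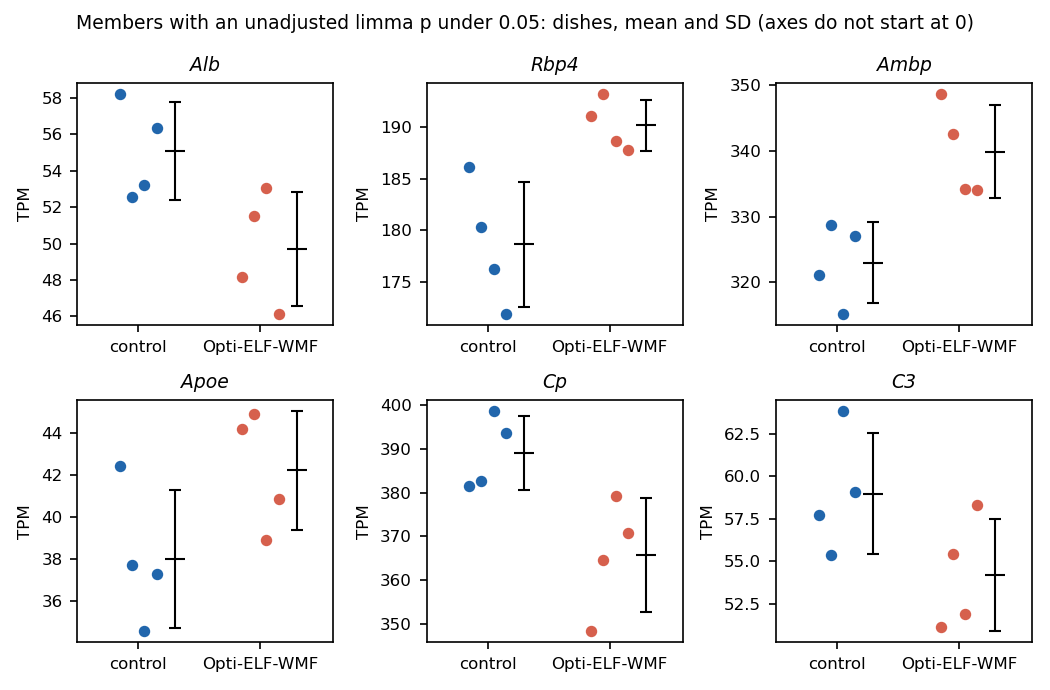
TPM of the 6 plasma protein genes with an unadjusted limma p-value under 0.05 in each of 4 control dishes (blue) and 4 exposed dishes (red), with mean and SD (black); each panel has its own axis, which does not start at 0. The groups do not overlap for Rbp4 and Ambp (exposed higher) and Cp (exposed lower), and overlap for Alb, Apoe and C3.

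The heavy chains were 1 case of neighbouring plasma protein genes. Of the 39 genes, 22 had another of the 39 or of 79 other listed plasma protein genes as a neighbour, with starts no more than 250 kb apart. The 12 groups of neighbours that held at least 1 of the 39 had 43 genes. In 7 of these 12 groups expressed and not expressed genes lay together, and in the other 5 no gene was expressed. Apoc4, C4a and Afp counted as not expressed, although their control means were above 1 TPM. Their lowest control dishes were at 0.92, 0.62 and 0.76 TPM. The groups of Alb and Afp and of Apoe and Apoc4 were mixed only through Afp and Apoc4. On chromosome 4 Ambp (323 TPM, mean of 4 control dishes) lay 201 kb from the acute-phase gene Orm1 (4.36 TPM) and 219 kb from Orm2 (0.06 TPM). On chromosome 17 C4b (0.642 TPM), C4a (1.25 TPM), Cfb (80.5 TPM) and C2 (14 TPM), which acts beside C4, lay within 170 kb. The 4 genes of the apolipoprotein group on chromosome 7, Apoc2 (43.9 TPM), Apoc4 (1.76 TPM), Apoc1 (3.1 TPM) and Apoe (38 TPM), lay within 27.6 kb, and those on chromosome 9 were Apoa1 (4.54 TPM), Apoc3 (0.155 TPM), Apoa4 (0 TPM) and Apoa5 (0.025 TPM), within 43.3 kb. The 3 fibrinogen genes on chromosome 3, within 42.1 kb, were all not expressed, with control means of 0.115 TPM or less.

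**Figure D5:**
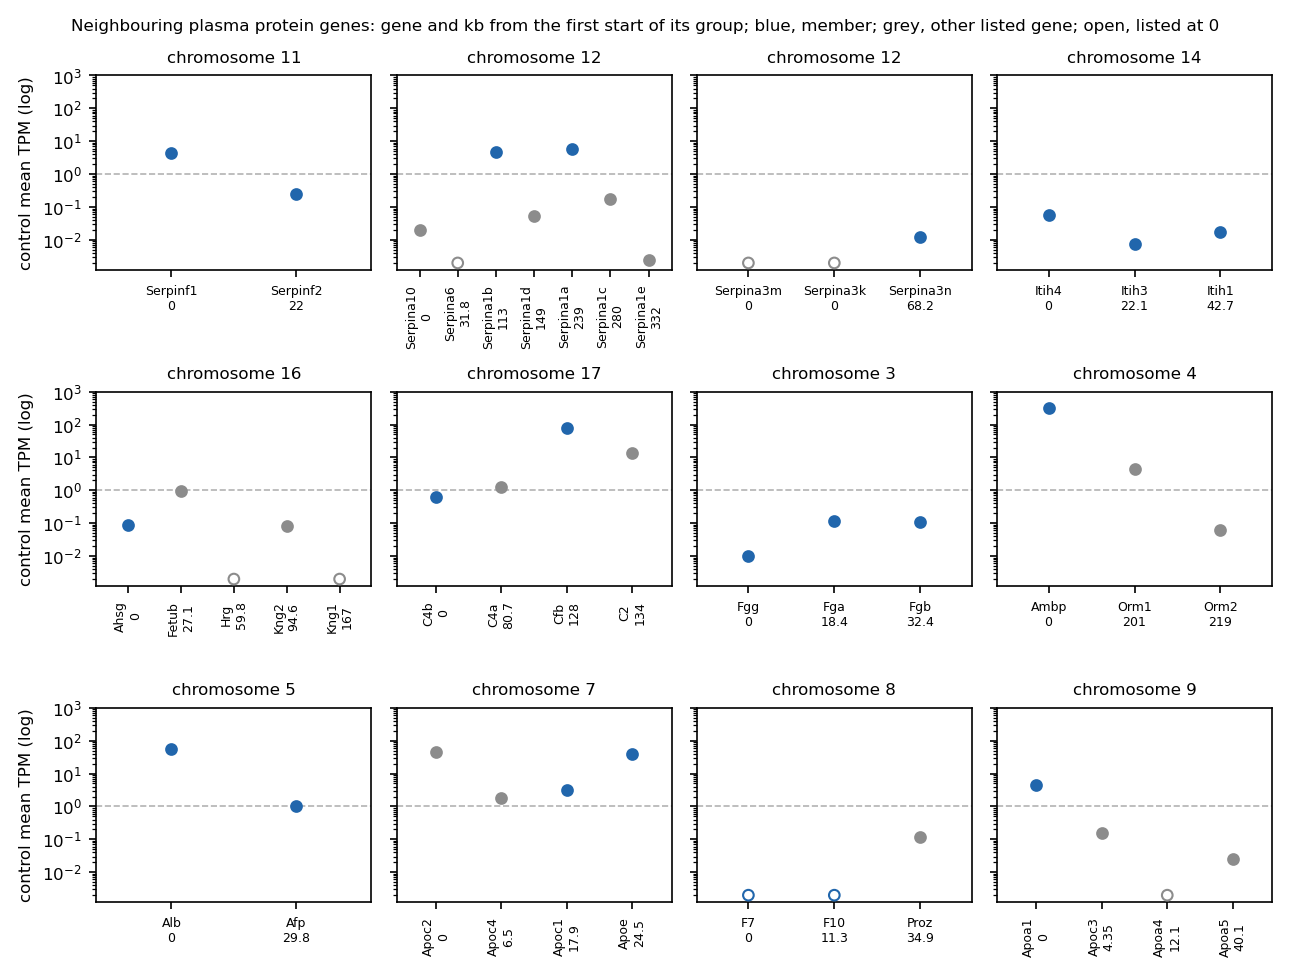
Mean TPM over 4 control dishes (log axis) of neighbouring plasma protein genes in 12 groups, each with at least 1 of the 39 genes, placed in order of their starts with the distance in kb from the first start of the group; blue, the 39 genes; grey, other listed plasma protein genes; open, listed at 0; dashed line, 1 TPM. Expressed and not expressed genes stand side by side, as with Ambp at 323 TPM and Orm2 at 0.06 TPM, and the groups of fibrinogen, of F7 and F10, and of Itih1, Itih3 and Itih4 lie wholly under the line. By these means the groups of Alb and Afp and of Apoe and Apoc4 lie wholly above it.

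Other plasma proteins of hepatocytes, 79 genes outside the 39, had the same mixed state: 28 were expressed and 19 were listed at 0 in all 8 dishes. Clu (clusterin) was highest at 2438 ± 23.6 TPM, followed by the growth factor binding protein Igfbp4 at 586 ± 3.66 TPM (SD, n = 4 control dishes). Of 32 tested, 3 were higher and 3 lower at an unadjusted p-value under 0.05, against 12% and 3.65% of all tested genes, none at an adjusted p-value under 0.05, and their median difference was 0.01. Among the higher were Clu (0.09, unadjusted p = 0.0015, adjusted p = 0.122, limma) and Fetub (0.27, unadjusted p = 0.039, limma). The 3 lower were the C4b-binding protein C4bp (-0.12, unadjusted p = 0.0272, limma), the cholesterol-esterifying enzyme Lcat (-0.32, unadjusted p = 0.0287, limma) and the lipase inhibitor Angptl4 (-0.10, unadjusted p = 0.0495, limma). Fetub and Lcat lay near the limit of 1 TPM. Fetub was at 0.79 to 1.19 TPM in control and 1.04 to 1.52 TPM in exposed dishes, and Lcat at 1.19 to 1.5 and 0.54 to 1.2 TPM. Each reached 1 TPM in every dish only in the group where it was higher, so its entry into the test rested on that group. The median-of-ratios, upper-quartile and mitochondria-free scalings gave 3 higher and 5 lower, 2 and 5, and 3 and 5. Of all tested genes they called 5.54% higher and 6.22% lower, 4.85% and 6.6%, and 5.7% and 5.57%. With 1 dish left out at a time, Clu kept p-values under 0.05, whereas Fetub lost its call in 6 of 8 such fits, Angptl4 in 6, Lcat in 3 and C4bp in 3, with p-values of up to 0.0953, 0.133, 0.0749 and 0.0748.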

How the data were processed

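RNA was prepared by the authors from 4 control and 4 exposed dishes of AML12 cells, made into libraries with a stranded mRNA kit and read on an Illumina NovaSeq. For each dish the authors deposited a table of TPM (55401 genes). The submitters' processing notes name Trimmomatic 0.39, STAR 2.7.4a, RSEM 1.3.3 and mm10, and the annotation is not given in the sources used here. TPM has the same total in every dish, so depth is unknown, and no detection floors or counting intervals could be given. Count tests foreseen for count tables were left out, since TPM is not a count.

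The 39 genes and all lists were chosen with earlier results of these data known. Genes with at least 1 TPM in 4 of 8 dishes were kept, log2(TPM + 1) was fitted with limma 3.58.1 (eBayes with a trend, R 4.3.3), and p-values were adjusted over 12122 genes by Benjamini-Hochberg. The fit was tested on simulated data. Each of the 39 genes was accounted for, with values per dish for tested genes among the 12 highest, under an unadjusted p of 0.05, or with groups apart. Other lists were named by smallest p, then level. Alternatives changed the pseudocount, filter, scaling, trend and block, summed paralogues, or left out dishes. Gene positions and transcripts for shared 100-base windows are from GENCODE M21 (GRCm38), start regions from RefSeq (GRCm38.p6). Results for 3 genes that the naming rule or a list covers are not reported here.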

Additional observations from a re-analysis of the deposited data

Results flagged for a closer look

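In control dish 3 Serpina1b, an alpha-1-antitrypsin gene, was at 3.62 TPM, while the other control dishes lay between 5.04 and 5.19 TPM. The gap was 0.904 of the range of the group. Among 38 groups of 4 dishes looked at, 1 dish stood apart in this way, where chance marks about 1 in 20 groups, or 1.9 of 38. Serpina1a was at 4.64 TPM in the same dish, also the lowest of its control values, and exposed dish 4 had a Serpina1b value of 3.60 TPM. Without control dish 3 the difference of Serpina1b was -0.07 in place of 0.03 (unadjusted p = 0.606, limma).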

How the results depend on the processing

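No adjusted p-value under 0.05 on deposited TPM became 1 such gene with TPM of at least 1 in every sample, 1 with median-of-ratios scaling, 1 with upper-quartile scaling, 1 without mitochondrial genes and 1 without the eBayes trend, and 0 to 6 with single dishes left out. The 3 plasma protein genes called higher became 0 with median-of-ratios, 0 with upper-quartile scaling and 1 without mitochondrial genes. The 3 with no overlap became 2 with median-of-ratios and 2 with upper-quartile scaling (Alb and Cp) and 3 to 5 with single dishes left out. Over all tested genes, 925 of 12116 had no overlap with median-of-ratios and 898 of 12117 with upper-quartile scaling. The 6 other plasma proteins called became 3 with TPM of at least 1 in every sample and 3 to 7 with single dishes left out, and the 1196 genes with no overlap became 1500 to 1918, where fewer dishes enter. Hpx turned to -0.008, -0.012 and -0.008 and Cfb to -0.028, -0.032 and -0.028 under median-of-ratios, upper-quartile and mitochondria-free scaling. Leaving out single dishes turned the sign of 9 uncalled genes, whose differences ranged from -0.153 to 0.032 (Afp), -0.271 to 0.181 (Apoc1), -0.018 to 0.110 (Serpina1a), -0.067 to 0.147 (Serpina1b), -0.000 to 0.246 (Serpinf1), -0.114 to 0.087 (Hp), -0.013 to 0.060 (Hpx), -0.016 to 0.017 (Cfb) and -0.045 to 0.014 (Itih2). The p-values of Apoe and C3 also missed 0.05 with no filter (0.06 and 0.0588) and without the eBayes trend (0.0642 and 0.0695). The cause of these shifts was not tested. The count of expressed genes stayed at 18 under every scaling and with each control dish left out. With C4a added, C4b passed the filter, with a difference of 0.09 (unadjusted p = 0.524, limma).

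The labels do not say whether same-numbered dishes were paired. Deviations of same-numbered dishes correlated by -0.0419 to 0.0258, within the range of -0.1498 to 0.1605 for dishes of unlike number. These correlations cannot show how the dishes were handled, so the fit was also made with a replicate block. With the replicate block 1889 genes had an unadjusted p-value under 0.05 in place of 1894 and 0 an adjusted one, and among the 39 genes only C3 changed its call (unadjusted p = 0.0641, limma). The unadjusted p-value of Apoe went from 0.046 to 0.00796 and that of Alb from 0.0168 to 0.0411 (limma).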

Other observations

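Genes for making and exporting plasma proteins were nearly all expressed, 23 of 24 in every control dish, with the folding enzymes Pdia3 at 666 ± 12.2 and P4hb at 647 ± 12.9 TPM (SD, n = 4 control dishes). At an unadjusted p under 0.05, 5 of the 24 were higher in exposed dishes and 0 lower, against 12% and 3.65% of all tested genes, and none passed adjustment (limma). The 5 were the cargo receptor Surf4 (0.07, unadjusted p = 0.0162), the proprotein-cleaving enzyme Furin (0.11, unadjusted p = 0.0178), the COPII coat genes Sec23b (0.12, unadjusted p = 0.0185) and Sec23a (0.13, unadjusted p = 0.028), and P4hb (0.07, unadjusted p = 0.0358, limma, adjusted p between 0.209 and 0.278). With each dish left out in turn, the call of Sec23a was lost in 5 of 8 fits (unadjusted p up to 0.0794, limma) and that of P4hb in 4 of 8 (unadjusted p up to 0.0898, limma). Under the median-of-ratios, upper-quartile and mitochondria-free scalings the counts were 2 higher and 0 lower, 1 and 0, and 0 and 1, where 5.54% and 6.22%, 4.85% and 6.6%, and 5.7% and 5.57% of all tested genes were called.

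Of 20 genes of acute-phase signalling, 19 were tested, with the NF-kappa-B subunit Rela higher (0.09, unadjusted p = 0.00779, adjusted p = 0.168, limma) and the glucocorticoid target Tsc22d3 lower (-0.07, unadjusted p = 0.0137, adjusted p = 0.194, limma), in both with no overlap between groups. Of all tested genes 12% were called higher and 3.65% lower, and 8.01% and 1.86% had no overlap. Another glucocorticoid target, Fkbp5, was at 276 ± 8.37 TPM in control and 287 ± 11.6 TPM in exposed dishes (SD, n = 4 each). Its difference of 0.05 was of the opposite sign to that of Tsc22d3, with overlap (unadjusted p = 0.145, limma). The 3 scalings gave 0 higher and 2 lower, 0 and 2, and 1 and 2. They called 5.54% and 6.22%, 4.85% and 6.6%, and 5.7% and 5.57% of all tested genes. Of 21 liver transcription factors, 15 were tested, with the bile acid receptor Nr1h4 higher (0.06, unadjusted p = 0.0498, limma) and Xbp1, a factor for secretory capacity, lower with no overlap (-0.09, unadjusted p = 0.00783, adjusted p = 0.168, limma), against the same shares of all tested genes. The call of Nr1h4 was lost in 6 of the 8 fits with 1 dish left out (unadjusted p up to 0.126, limma). Each of the 3 scalings gave 0 higher and 1 lower, against the shares of all tested genes given above for these scalings. Of the 16 hepatocyte markers only 3 were expressed and tested, the keratins Krt18 and Krt8 and the gene Ass1. All 3 were higher at an unadjusted p under 0.05 (limma), against 12% of all tested genes. The call of Ass1 was lost in 3 of the 8 fits with 1 dish left out (unadjusted p up to 0.062, limma). After the 3 scalings 0, 0 and 1 of the markers were higher, against 5.54%, 4.85% and 5.7% of all tested genes, while 0 of 5 cholangiocyte markers were called under any of them.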
